A study of Caenorhabditis elegans with 3 samples.

Results

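DRAP-1 ChIP-seq regions that lay on the autosomes of Caenorhabditis elegans, between protein-coding genes and away from gene 5′ ends, numbered 4236 of the 30000 candidate regions called on the pooled reads. A region was taken when its summit, the position of strongest enrichment, was more than 500 bp from the annotated 5′ end of every gene of any kind and inside no protein-coding gene span. The candidates included weak regions down to the level of background, and 160 of the 4236 were in the thresholded list that the irreproducible discovery rate (IDR) procedure returned. That procedure uses how alike regions rank across replicates. The list held the 1468 candidates with the highest pooled signal, so a region in it need not rank alike in every replicate. These 160 were compared with the other 4076.

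The worms were strain OP700, in which the integrated transgene wgIs700 carries drap-1 with a C-terminal TY1, EGFP and 3xFLAG tag together with unc-119(+), in an unc-119(tm4063) background. The material was whole mixed-stage embryos obtained by bleaching, of pooled sexes, labelled as 3 hours old. Chromatin was sheared by sonication and precipitated with an antibody to GFP, per the sample descriptions, whereas the antibody label names drap-1. The 3 samples, numbered 2, 3 and 4, are biological replicates of 1 group, and no untagged or untreated group was analysed here. Only 1 transgenic line was used, and whether its endogenous drap-1 locus is intact is not given in the sources used here. In whole embryos, binding in fewer cells and weaker binding in each cell cannot be told apart. Read counts are absent from the deposited lists, which leaves the depth unknown, and the scale of their signal value is not stated. Signal was therefore ranked and set side by side only within 1 list, and its values are the authors' own.

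DRAP-1 is the alpha subunit of negative cofactor 2 (NC2), which pairs with DR1 through histone folds. The pair binds the TATA-binding protein on DNA and can block the entry of general transcription factors, and in other systems it is also known to support some core promoters. In C. elegans many transcripts are trans-spliced, which removes the original 5′ end, so the annotated 5′ end of a gene can lie downstream of its transcription start. Sequence between genes can also hold enhancers, and unannotated noncoding transcripts can start there.

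Sequences that reach 50 bp to either side of the summit are shown for 9 of the 160 regions and for the strongest member outside the IDR list. They show what lay under the highest signals and around the pair of short sequences described further on. Capitals mark GAGAGA and CTGCGTC on either strand (TCTCTC and GACGCAG on the other strand), and in some regions also CACGTG or AATAAA. The bases are those of the WBcel235 assembly, which ce11 names. The first 4 sequences have the 4 highest signals of the 160, and the next 5 were chosen after the values were seen, to show the short sequences.
K12H4.6 and K12H4.5, chrIII:8043913-8044013, plus strand: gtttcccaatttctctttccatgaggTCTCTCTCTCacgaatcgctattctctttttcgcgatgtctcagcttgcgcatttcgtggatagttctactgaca
dpy-21 and Y59A8B.24, chrV:17951374-17951474, plus strand: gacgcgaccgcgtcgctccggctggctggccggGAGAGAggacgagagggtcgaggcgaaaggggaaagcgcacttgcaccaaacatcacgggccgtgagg
gcc-2 and cbp-1, chrIII:9765572-9765672, plus strand: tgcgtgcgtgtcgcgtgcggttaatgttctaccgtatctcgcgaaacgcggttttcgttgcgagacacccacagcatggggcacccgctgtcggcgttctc
aagr-1 and D2096.7, chrIV:8375543-8375643, plus strand: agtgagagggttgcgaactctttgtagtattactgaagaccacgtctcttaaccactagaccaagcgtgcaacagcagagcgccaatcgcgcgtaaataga
T04C4.3 and fnip-2, chrIV:2219545-2219645, plus strand: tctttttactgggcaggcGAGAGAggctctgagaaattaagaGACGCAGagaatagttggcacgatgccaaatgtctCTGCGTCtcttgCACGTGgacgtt
B0507.1 and sup-37, chrV:8785659-8785759, plus strand: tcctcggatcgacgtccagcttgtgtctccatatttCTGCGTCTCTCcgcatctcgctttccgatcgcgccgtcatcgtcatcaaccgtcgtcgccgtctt
dnj-25 and pha-4, chrV:20749181-20749281, plus strand: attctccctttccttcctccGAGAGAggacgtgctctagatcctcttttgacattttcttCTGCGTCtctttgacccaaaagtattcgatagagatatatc
tcc-1 and csn-1, chrV:17858062-17858162, plus strand: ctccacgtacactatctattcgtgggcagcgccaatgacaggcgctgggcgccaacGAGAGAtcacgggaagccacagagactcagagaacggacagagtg
gldi-3 and mtrr-1, chrII:9282888-9282988, plus strand: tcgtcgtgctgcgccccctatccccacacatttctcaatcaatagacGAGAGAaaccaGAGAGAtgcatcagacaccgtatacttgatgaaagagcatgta
srh-172 and srh-171, outside the IDR list, chrV:19964825-19964925, plus strand: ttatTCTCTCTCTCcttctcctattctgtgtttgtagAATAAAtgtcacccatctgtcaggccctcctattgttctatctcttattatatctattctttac

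The strongest of the 160 regions (chrIII:8043784-8044154) lay between K12H4.6 and K12H4.5, a pair of divergently transcribed genes of uncharacterized products, and was 524 bp upstream of K12H4.5. Its pooled signal was 1331, and it ranked 5 in replicate 2, 5 in replicate 3 and 4 in replicate 4. It was thus near the top of every list. The second (chrV:17951298-17951559) lay between dpy-21, which encodes a histone demethylase that acts in X-chromosome dosage compensation, and Y59A8B.24, with a signal of 549.3 and ranks of 12, 186 and 84 in replicates 2, 3 and 4. Another IDR summit lay 214 bp away from it. The third (chrIII:9765449-9765790) was 887 bp upstream of cbp-1, which encodes a histone acetyltransferase of the CBP/p300 family, and had a signal of 529.8 and ranks of 75, 65 and 98. Its nearest 5′ end of any kind was that of the noncoding RNA gene R10E11.10, at 513 bp, just past the 500 bp limit. Distances name the flanking genes and do not show which gene, if any, a region acts on.

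The fourth (chrIV:8375447-8375742) was the only convergent one among the 10 highest, in a gap of 350 bp between the 3′ ends of aagr-1 and D2096.7. Its signal was 456.4, with ranks of 183, 84 and 83, and the nearest gene 5′ end was 2037 bp away. The fifth (chrIV:3050445-3050868) lay 553 bp upstream of eel-1, which encodes a HECT-type ubiquitin ligase, with a signal of 378.0 and ranks of 152, 167 and 302. Every base within 50 bp of its summit was soft-masked as a repeat in the assembly, and another IDR summit lay 242 bp away. The other 5 of the 10 highest had signals of 308.6 to 348.8. They lay between sam-10 and mrpl-20 (chrII:13335374-13335633), which encode a single-stranded DNA-binding protein homologue and a mitochondrial ribosomal protein, and between unc-51, an autophagy kinase also needed for axon guidance, and Y60A3A.23 (chrV:20005925-20006087). One (chrV:1151311-1151615) was inside the lincRNA gene linc-128, 4777 bp upstream of cmd-1, the calmodulin gene. The remaining 2 lay upstream of sup-26, which encodes an RNA-binding protein (chrIII:4282235-4282501), and between F54F12.1 and Y39E4B.6 (chrIII:13062507-13062787). All 10 were among the 1468 highest regions of all 3 replicates, with the lowest rank, 555, at unc-51 in replicate 3. Of the 10 highest, 7 lay between divergent genes, 2 between tandem genes and 1 between convergent genes.

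At the other end, the 3 weakest regions in the IDR list lay between apd-3 and W10G11.19, between exc-15 and the homeobox gene unc-62, and between mif-4 and ipla-6, with signals of 127.3, 127.1 and 126.8. The region by ipla-6 ranked 6477 in replicate 2, 749 in replicate 3 and 718 in replicate 4. The 3 strongest members outside the list, by srh-171, ssu-1 and tln-1, had signals of 126.6, 126.3 and 126.2, so values on either side of the list's limit were nearly equal. By signal, the IDR peaks held pooled ranks 1 to 1468 without a gap.

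Of the 4236 autosomal intergenic regions, 160 (3.78%, exact 95% interval 3.22 to 4.396) were in the IDR list, against 4.89% of all 30000 pooled candidates. The share was 9.71% (805 of 8290) for autosomal regions within 500 bp of a gene 5′ end and 1.21% (150 of 12395) for autosomal regions inside coding spans away from 5′ ends. On the X chromosome, 77 of 950 intergenic regions away from 5′ ends (8.11%, 6.45 to 10.03) were in the list. For a value per replicate, the same position rule was applied to each replicate's own 30000 regions, and the share among its 1468 highest was taken. This share was 3.47%, 3.99% and 3.95% in replicates 2, 3 and 4 for the autosomal intergenic regions (3.81% ± 0.289, SD, n = 3). It was 6.81% ± 0.588 for the X intergenic regions, 1.70% ± 0.184 for autosomal coding spans and 9.21% ± 0.213 for regions near autosomal 5′ ends (n = 3 each). None of the 3 other classes overlapped the autosomal intergenic values (exact two-sided permutation p = 0.1 for each, the smallest that 3 against 3 can give, so no such comparison can pass a threshold of 0.05). The median signal of the 160 was 158.0 (quartiles 138.3 and 184.0), against 173.3 for the X intergenic peaks, 183.9 for those near autosomal 5′ ends and 155.7 for those in coding spans. Just outside the 500 bp limit, 14 of 312 intergenic regions at 501 to 600 bp were in the IDR list (4.49%), and just inside it 16 of 332 at 401 to 500 bp (4.82%).

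In all, 22 features of position and sequence, some of which overlap, were compared between strong and weak autosomal intergenic regions. Each was measured in the pooled list, as IDR regions against the rest, and in the 3 replicate lists, as the regions among the 1468 highest (162, 160 and 160 regions) against the other regions (4502, 3850 and 3886). The replicate values were compared by the exact two-sided permutation test of 3 against 3. Its smallest p of 0.1 becomes 0.122 after Benjamini-Hochberg adjustment over the 22. Both groups come from the same lists, so the difference within each replicate was also taken, a comparison added after seeing the data. It had 1 direction in all 3 replicates for 20 of the 22 features, and the exact sign-flip test of 3 pairs cannot go below p = 0.25. The statements that follow therefore rest on values, their overlap and their direction within replicates, and none passes a test.

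The strong regions lay more often on the upstream side of their nearest coding gene. In the pooled list 103 of 160 were upstream of that gene's 5′ end (64.4%, 95% interval 56.4 to 71.8), against 2135 of 4076 of the rest (52.4%, 50.8 to 53.9). In replicates 2, 3 and 4 the upstream share was 61.7%, 60.6% and 61.3% of the strong regions and 54.2%, 52.4% and 52.1% of the others (61.2% ± 0.553 against 52.9% ± 1.16, n = 3, exact p = 0.1). The values did not overlap, and the difference in the pooled list, 12.0 percentage points, was larger than the 8.29 ± 0.828 of the replicates. In the IDR regions found in both other replicates, it came to 21.0 with replicate 2 not consulted (60 regions). It was 12.5 with replicate 3 not consulted (57 regions) and 22.2 with replicate 4 not consulted (55 regions). The position rule removes the first 500 bp upstream of a gene but not the sequence just downstream of its 3′ end, so both groups lack the nearest upstream sequence. Among the 160, 32 lay 501 to 1000 bp upstream of the nearest coding gene (20%, against 13.2% of the rest) and 36 lay 1001 to 2000 bp upstream (22.5% against 16.1%).

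**Figure D1:**
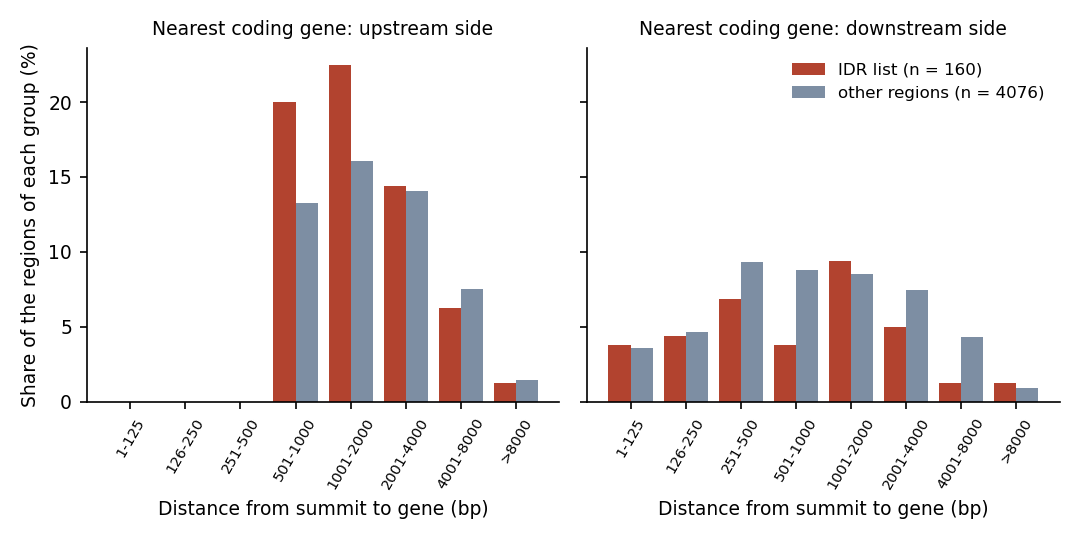
Share of regions (y axis, %) by distance in bp from the summit to the nearest coding gene (x axis), with upstream and downstream sides in separate panels and bars for the 160 regions in the IDR list and the other 4076. The upstream bars of the IDR regions are tallest at 501 to 1000 bp (20%) and 1001 to 2000 bp (22.5%), and the first 500 bp upstream are empty by the position rule.

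Side depends on the layout of the 2 coding genes that flank a region, which was examined after values had been seen. Between divergent genes every region is upstream of its nearest gene, and between convergent genes every region is downstream. In tandem gaps, where either side is possible, 35 of 89 IDR regions (39.3%, 29.1 to 50.3) and 38.6% of the rest were upstream, so in the pooled list the difference in side is the difference in layout. In replicates 2, 3 and 4 the tandem upstream share was 43.7%, 46.4% and 41.8% of the strong regions and 40.8%, 38.1% and 38.2% of the others. Between divergent genes, whose 5′ ends both face the gap, lay 68 of the 160 strong regions (42.5%, 34.7 to 50.6) and 30.3% of the rest. The divergent share in replicates 2, 3 and 4 was 38.3%, 36.3% and 37.5% of the strong regions, against 30.7% ± 0.409 of the others (exact p = 0.1, no overlap). Between tandem genes, which point the same way, lay 55.6% of the strong regions and 57.3% of the rest, and the replicate values overlapped (exact p = 0.2), with differences of -2.96, -4.72 and -0.124 percentage points within replicates 2, 3 and 4. Between convergent genes, whose 3′ ends face each other, lay 3 of the 160 (1.88%, 0.388 to 5.38) and 506 of the 4076 (12.4%). Replicate by replicate the convergent share of the strong regions was 8.02%, 11.3% and 5.63%, with a mean of 8.30% ± 2.82, against 12.3% ± 0.294 of the others (exact p = 0.1). All 3 replicate values were above the 1.88% of the pooled list, so the scarcity of convergent regions was less marked in single replicates.

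Read the other way, 5.23% of the 1301 regions between divergent genes were in the IDR list, 3.67% of the 2423 between tandem genes and 0.589% of the 509 between convergent genes, against 4.89% of all candidates. The gaps themselves differed in size, with medians of 7688 bp, 5807 bp and 3273 bp. The 3 convergent regions included the one between aagr-1 and D2096.7 described above and one (chrIII:13160612-13161035) 540 bp past the 3′ end of abce-1, an ATP-binding cassette protein gene. The latter had a signal of 138.6 and ranks of 1594, 1220 and 2291 in replicates 2, 3 and 4, so it was among the 1468 highest in replicate 3 only. The highest region on chromosome I (chrI:4535895-4536318) lay in a tandem gap 1302 bp upstream of bet-1, which encodes a bromodomain protein, with a signal of 267.3 and ranks of 223, 530 and 411.

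**Figure D2:**
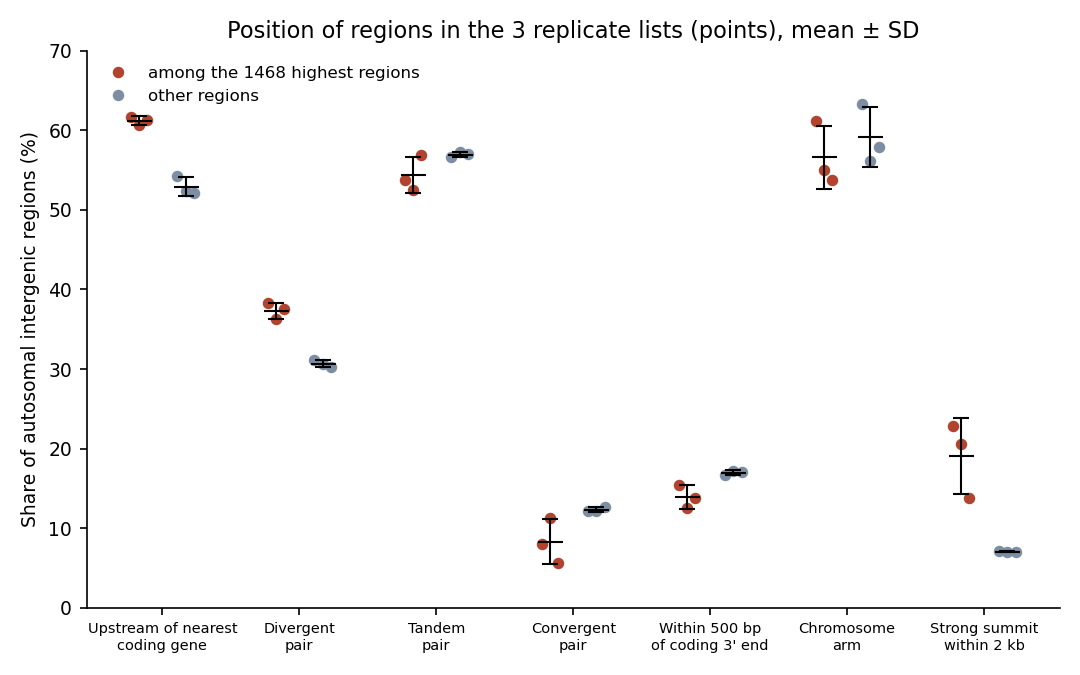
Share of autosomal intergenic regions (y axis, %) with each position feature (x axis) in the 3 replicate lists, as points with the mean and SD, for regions among the 1468 highest and for the other regions. The upstream share of the strong regions sits between 60.6% and 61.7%, above the 52.1% to 54.2% of the others, whereas the shares in chromosome arms overlap.

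Distance to the nearest coding gene separated the strong regions from the rest less clearly. The median was 1228 bp (quartiles 657.8 and 2298) for the 160 and 1327 bp (633 and 2712) for the rest. In the replicates it was 1268, 1358 and 1156 bp for the strong regions and 1341, 1319 and 1331 bp for the others (1260 ± 101.2 against 1330 ± 11.3 bp, exact p = 0.4). These ranges overlapped. To the nearest coding 5′ end the median was 1593 bp for the 160 and 2240 bp for the rest. In replicates 2, 3 and 4 it was 2026, 2190 and 1844 bp, against 2209 ± 20.6 bp for the other regions (exact p = 0.1), and in replicate 3 the 2 groups differed by 1 bp. The share in the IDR list was 4.86% at 501 to 1000 bp from the nearest coding 5′ end, 4.36% at 1001 to 2000 bp, 3.51% at 2001 to 4000 bp and 2.62% beyond 4000 bp.

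Regions near gene 3′ ends, where transcripts are cleaved, did not separate the strong ones clearly. Within 500 bp of a coding gene 3′ end lay 24 of the 160 (15.0%, 9.85 to 21.5) and 17.6% of the rest. The replicate shares were 15.4%, 12.5% and 13.8% of the strong regions against 16.99% ± 0.267 of the others (exact p = 0.1). The pooled interval includes the share of the rest. With regions taken from 250 bp beyond 5′ ends, the difference of -2.62 percentage points turned to 2.90.

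Some regions counted as intergenic lay inside noncoding genes or pseudogenes, since the position rule excludes coding spans only. This held for 6 of the 160 (3.75%, 1.39 to 7.98), 3 in lincRNA genes and 3 in pseudogenes, and for 8.66% of the rest, mostly the 326 in pseudogenes. The replicate values were 6.17%, 5.00% and 4.38% of the strong regions against 7.44%, 11.1% and 11.7% of the others (exact p = 0.1). The nearest 5′ end belonged to a coding gene in 75.6% of the 160 and 62.5% of the rest, and to a pseudogene in 4.38% and 10.9%.

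Along the chromosomes, the outer 25% at either end was counted as arm and the remainder as centre. Arms of C. elegans autosomes recombine more and are richer in repeats than centres. In arms lay 53.8% of the 160 strong regions and 61.9% of the rest, but in the replicates the shares were 61.1%, 55% and 53.8% against 63.3%, 56.2% and 57.9%, which overlapped (exact p = 0.5). Within each replicate the strong regions had the lower share, with differences of -2.24, -1.16 and -4.12 percentage points (exact sign-flip p = 0.25). The share in the IDR list was 3.30% in arms and 4.55% in centres, beside 3.53% and 5.66% for all autosomal candidates, so the intergenic regions followed the direction of the whole list. By chromosome it was 4.46% (41 of 919) on I, 2.26% (20 of 884) on II, 4.81% (41 of 852) on III, 3.14% (20 of 636) on IV and 4.02% (38 of 945) on V. For all candidates it was 4.61%, 3.65%, 4.67%, 4.60% and 4.83% on I to V. The intergenic share was close to this on I and III and below it on II, IV and V. Only on II did the exact interval of the intergenic share (1.39 to 3.47) exclude the share of all candidates. The intervals on IV (1.93 to 4.82) and V (2.86 to 5.48) included it. These intervals cover the counting of regions only, all candidates include the members, and no replicate values by chromosome are given here. No difference is therefore shown on any chromosome, II included.

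Strong regions had other strong regions near them more often than weak ones did. Of the 160, 20 had another IDR summit of any class within 2000 bp (12.5%, 7.81 to 18.6), against 7.48% of the rest. In replicates 2, 3 and 4 the share was 22.8%, 20.6% and 13.8% of the strong regions and 7.09%, 7.04% and 7.03% of the others (19.1% ± 4.74 against 7.05% ± 0.0317, exact p = 0.1, no overlap). Of the 20 neighbours, 11 lay within 500 bp of a gene 5′ end and 9 were intergenic. For most of the 20 regions the neighbour lay only 199 to 243 bp away. Such a pair of summits can belong to 1 stretch of enrichment. How much of the difference from the rest came from such pairs was not tested. The median distance to the nearest other strong summit was 13095 bp for the 160 and 25729 bp for the rest. The 2000 bp share was lower than the 17.3% of all IDR peaks. When only regions over 1000 bp from every 5′ end were kept, the difference in the pooled list was -0.62 percentage points, so it turned. With replicate 3 not consulted it was 11.8 points.

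The 160 regions were spread over many gaps between coding genes, of which 135 held 1 of them, 11 held 2 and 1 held 3. The gap with 3, between F54F12.1 and Y39E4B.6 on chromosome III, is 15313 bp long, and its 3 summits lay between positions 13062672 and 13068502 with signals of 137.3 to 308.6. Of the 103 strong regions on the upstream side of a gene, 10 (9.71%, 4.75 to 17.1) lay upstream of a gene that also had an IDR summit within 500 bp of its 5′ end, against 72 of 2135 for the rest (3.37%, 2.65 to 4.23). For the other strong upstream regions the gene's own 5′ end held no IDR summit. At Y59A8B.24, unc-85 and unc-112 the strong region lay 525, 516 and 603 bp upstream, with another IDR summit 214, 200 and 202 bp away. Such a pair can belong to 1 stretch of enrichment cut by the 500 bp limit, so the summits need not be separate sites.

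In single replicates the 160 regions ranked below the average IDR peak. A region was called found when a summit within 100 bp was among the 1468 highest of a replicate. By that rule 96 of 160 (60%) were found in replicate 2, 102 (63.8%) in replicate 3 and 88 (55%) in replicate 4, against 69.4%, 73.5% and 69.2% of all IDR peaks. The median ranks were 1047, 962 and 1233, against 797.5, 771.5 and 767.5. All 3 replicates thus had the same order, with replicate 4 the lowest for the intergenic regions. Almost all 160 had some candidate summit within 100 bp in a replicate (150, 151 and 149), as against 54.7%, 48.1% and 40.1% of the 4076 outside the list.

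In every replicate 37 of the 160 were found (23.1%, 16.8 to 30.4), against 43.0% (631) of all 1468 IDR peaks. The low share was not particular to this class, as it was 26.7% (40 of 150, 19.8 to 34.5) for IDR peaks in autosomal coding spans. It was 42.9% for X intergenic peaks and 47.1% for those near autosomal 5′ ends. Of the 160, a further 61 were found in 2 replicates, 53 in 1 and 9 in none. This count differed with pooled rank. Of the 25 regions of pooled rank 500 or better, 24 were found in every replicate, as were 93.2% of all IDR peaks of that rank. At ranks 501 to 1000 it was 13 of 66 (19.7%, 10.9 to 31.3) against 31.8%, and below rank 1000 it was 0 of 69 (exact interval up to 5.21%), against 1.28% of all IDR peaks. The IDR peaks include the 160, so the 2 are not independent. Outside the list none of the 4076 was found in all 3 replicates, 11 were found in 2 and 136 in 1. The pooled and replicate lists come from the same reads, and membership was itself set by pooled signal. The counts by pooled rank and by list membership are therefore partly fixed by the selection and only describe repeatability. For the 133 regions with a rank in all 3 replicates, the worst rank was a median of 3.09 times the best, and 2.68 times for all 1280 such IDR peaks.

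The sequence under the strong summits held fewer A and T bases. Within 50 bp of the summit, A+T content averaged 49.6% in the 160 and 56.3% in the rest. In replicates 2, 3 and 4 it was 49.6%, 50.2% and 50.05% in the strong regions and 58.7%, 57.9% and 57.8% in the others (49.95% ± 0.303 against 58.1% ± 0.485, exact p = 0.1, no overlap). The lower content was common to the other classes of the pooled list. Near autosomal 5′ ends it was 49.2% in IDR peaks and 56.0% in the rest. In autosomal coding spans it was 48.2% and 55.5%, and in X intergenic regions 48.7% and 56.3%. Base composition can alter recovery in sequencing libraries, and its part in the ranks was not tested. Soft-masked repeat bases made up 16.8% of the sequence in the 160 and 28.2% in the rest, and in the replicates 22.2%, 16.7% and 18.4% against 34.0%, 26.5% and 25.5% (exact p = 0.1). The central 51 bases occurred more than once in the genome in 4 of the 160 and 118 of the 4076.

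The short sequence GAGAGA, the core of sites that GAGA-binding proteins recognise in Drosophila, lay within 50 bp of the summit in 68 of the 160 strong regions (42.5%, 34.7 to 50.6). It was in 14.0% of the rest (13.0 to 15.1) and in 10.4% of all pooled candidates. Both strands were searched, and TCTCTC is its other strand. By replicate, 40.1%, 33.8% and 36.9% of the strong regions held it, against 12.3%, 13.1% and 12.2% of the others (36.9% ± 3.19 against 12.5% ± 0.537, exact p = 0.1, no overlap). The strong intergenic values also lay above those of strong regions near autosomal 5′ ends (18.9% ± 1.55), in autosomal coding spans (22.2% ± 2.52) and between genes on the X chromosome (23.7% ± 4.05), with an exact p of 0.1 against each (n = 3). A higher share in IDR regions than in the rest was not particular to this class. In the pooled list it was 19.1% against 11.3% near autosomal 5′ ends. It was 28.0% against 6.96% in autosomal coding spans and 24.7% against 12.7% for X intergenic regions. A+T content was also split into bands, from under 45% to over 60%, for the autosomal intergenic regions. Within each band the share was 33.3% to 50% in the IDR regions and 8.59% to 19.0% in the rest. The examples printed above show it in several settings, as a longer run of TC repeats at K12H4.6 and K12H4.5 and as single or paired copies at tcc-1 and gldi-3. The strongest region outside the list, by srh-171, held such a run too, and 3 of the 10 highest regions held GAGAGA. The median signal was 160.6 in the 68 with it and 158.0 in the 92 without it.

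CTGCGTC lay within 50 bp of the summit in 29 of the 160 (18.1%, 12.5 to 24.98), in 3.46% of the rest and in 2.64% of all candidates. In replicates 2, 3 and 4 it was in 12.3%, 12.5% and 16.3% of the strong regions, against 3.18%, 3.27% and 3.19% of the others (13.7% ± 2.21 against 3.21% ± 0.0519, exact p = 0.1, no overlap). Near autosomal 5′ ends the strong regions had 6.04% ± 0.350 (exact p = 0.1 against the intergenic ones), and the X intergenic ones 10.2% ± 2.28, which overlapped (exact p = 0.3). In the pooled list the IDR peaks of each other class also exceeded their rest. The shares were 6.71% against 3.23% near autosomal 5′ ends, 12.0% against 1.80% in autosomal coding spans, and 14.3% against 2.29% on the X. Split by A+T content, the difference did not hold in every band of the autosomal intergenic regions. At 50 to 55% A+T it was 3 of 41 IDR regions (7.32%) against 5.09% of the rest, and above 60% it was 0 of 12 against 0.822%. In the other bands it was 23.1% to 25% against 3.12% to 7.87%. Of the 160, the 29 regions that held CTGCGTC were weaker members of the list, with a median signal of 140.4 against 165.4 for the other 131. None was among the 10 highest. Only 1 of the 29 was found in every replicate, against 36 of the other 131, and among the 37 found in every replicate the share differed from that of the rest by -0.757 percentage points. With a replicate not consulted, the difference of 14.7 points came to 3.81 to 6.54. That 1 region, in the gap between T04C4.3, an initiation factor gene, and fnip-2 (chrIV:2219383-2219806, ranks 426, 516 and 850), held CTGCGTC on both strands together with GAGAGA and CACGTG. The region 3821 bp upstream of pha-4, the FoxA gene that specifies the pharynx (chrV:20749019-20749442), ranked 738 in replicate 3 and 628 in replicate 4 and had no summit within 100 bp in replicate 2. The one 836 bp upstream of sup-37, which encodes a zinc finger protein (chrV:8785497-8785920), ranked 267, 1009 and 2190.

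Both short sequences occurred together in 20 of the 160, and 77 held at least 1 of them. In terms of the list, 10.6% of the 640 members with GAGAGA were in it, 17.1% of the 170 with CTGCGTC, 20.8% of the 96 with both and 2.36% of the 3522 with neither. Over all pooled candidates the shares were 11.4%, 16.3%, 17.6% and 3.94%, of which the first 3 lie within the exact intervals of the members' shares (8.35 to 13.3, 11.7 to 23.6 and 13.2 to 30.3). The 2 were picked out of 6 sequences searched. TATAAA, the core of the TATA box, was in 3.13% of the 160 and 5.57% of the rest, and AATAAA, the signal for 3′ end cleavage, in 5.63% and 10.9%. In the replicates TATAAA was in 1.66% ± 0.370 of the strong regions and 6.40% ± 0.876 of the others (n = 3). For AATAAA it was 4.76% ± 1.76 and 13.1% ± 1.30. Both hold only A and T, and they were not split by A+T content, which was lower in the strong regions. CACGTG, the E-box, was in 2.50% of the 160 and 2.67% of the rest. GTTCGANTC, a B box that marks tRNA gene promoters, was in 0 of 160 (exact interval up to 2.28%), in 0.466% of the rest and in 4.10% of the IDR peaks near autosomal 5′ ends. A match is a description of the letters in this window and shows no binding site, and its absence says nothing about a factor.

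**Figure D3:**
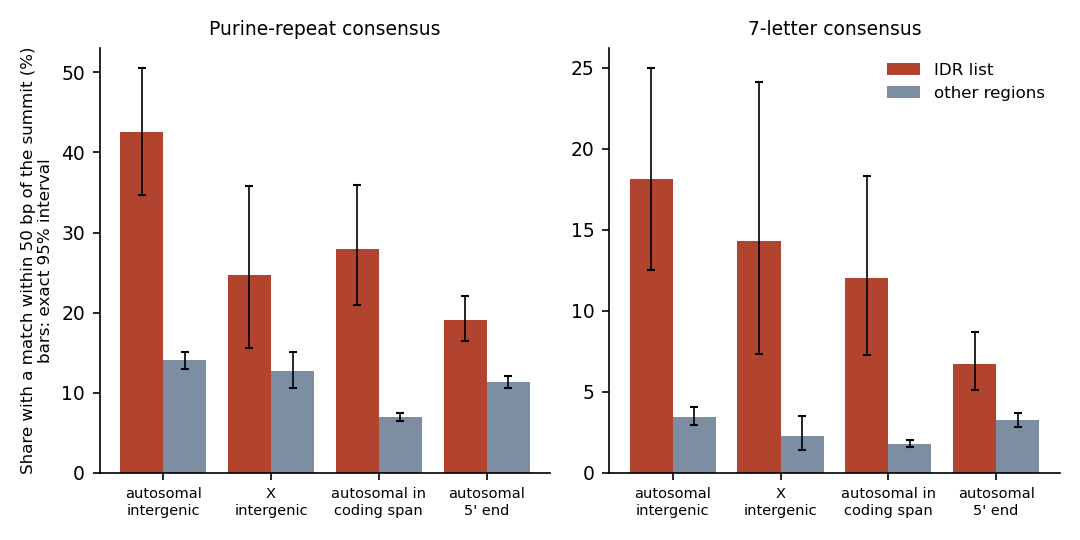
Share of regions (y axis, %, with exact 95% intervals) that held each of 2 short sequences within 50 bp of the summit, by class of position (x axis), for regions in the IDR list and the rest. Among IDR regions the autosomal intergenic bars are the tallest, at 42.5% and 18.1%, against 19.1% and 6.71% near autosomal 5′ ends. For both sequences their intervals overlap those of X intergenic regions (24.7% and 14.3%) and of autosomal coding spans (28.0% and 12.0%).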

How the data were processed

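DRAP-1 ChIP-seq of embryos was analysed from 5 lists deposited by the authors. Per the deposited README texts, a list of peaks and background was derived from each replicate's alignment with 2 control files, a pooled list from the 3 alignments, and an IDR-thresholded list from these, all on ce11. The sources used here do not name the caller, its version or the IDR threshold. The deposited signal ranks regions within a list, on a scale that is not stated, and the deposited −log10 q-value was not used. The depth is unknown, as the lists hold no read counts.

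Summits (start plus peak offset) were placed against Ensembl release 115 gene models of WBcel235, and gene products came from RefSeq. Shares have exact Clopper-Pearson 95% intervals, which cover the counting of regions only. Strong and other regions were compared over the 3 replicate lists with the exact two-sided permutation test, tested on simulated data. Python 3.11.15, numpy 2.4.6, pandas 2.3.3 and scipy 1.17.1 were used.

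The members and the sequences searched were chosen with earlier results of these data known. Named regions are the 10 highest, the highest of each autosome, the 2 highest of each gene layout, and the 3 lowest in and 3 highest outside the list. Gene layout, the emphasis on GAGAGA and CTGCGTC, their replicate and A+T values, the differences within replicates and 8 further sequence windows were added after seeing the data. Alternatives covered the position rule, the comparison set, each window and leaving out each replicate.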

Additional observations from a re-analysis of the deposited data

How the results depend on the processing

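Of the alternative values for 12 results, 52 kept their direction and lay within 1 SD of the replicate values or, for shares of the list and of regions found, within the exact interval; 59 moved further and 4 turned. Differences are strong minus other regions in the pooled list, in percentage points unless said otherwise, and the cause of the changes was not tested. Those for layout, GAGAGA and CTGCGTC were added after seeing the data. Settings without a replicate keep the IDR regions found in both others, and the pooled calls still hold its reads.

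With a limit of 250 bp from 5′ ends, the share in the IDR list was 5.02%, the distance difference -486 bp, arms -12.7, CTGCGTC 10.8, GAGAGA 19.0, and 3′ ends turned to 2.90. With 1000 bp the distance difference was -233 bp, CTGCGTC 18.3, the upstream side 10.2, and neighbours turned to -0.62. Against the lowest-signal members, A+T content differed by -9.76, convergent share by -14.4, divergent share by 14.4, arms by -0.625, 3′ ends by -4.38 and the upstream side by 13.1. For the 37 regions found in every replicate, A+T content was -8.54, the divergent share 23.8, arms -5.17, neighbours 11.4, 3′ ends -6.80 and the upstream side 23.3, while distance turned to 170.5 bp and CTGCGTC to -0.757. Outside every gene span, the upstream side was 10.9. A 50 bp sharing distance gave 12.5% found in every replicate, and 2 times as many regions per replicate gave 53.8%. Windows of 25 and 100 bp gave 8.81 and 24.1 for CTGCGTC and 14.6 and 40.4 for GAGAGA. Neighbours within 5000 bp gave 12.0, and 3′ end windows of 250 and 1000 bp gave -0.143 and -5.77.

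Without 1 replicate, the values ranged from -8.24 to -7.30 for A+T content, -247.5 to -6.00 bp for distance, 15.4 to 18.8 for the divergent share, -11.0 to -4.03 for arms, 3.81 to 6.54 for CTGCGTC, 8.88 to 11.8 for neighbours, -7.62 to -1.83 for 3′ ends and 12.5 to 22.2 for the upstream side. The share found in both other replicates was 34.4% to 37.5%, and the share of members so found 1.30% to 1.42%. Replicate 3 was the one left out at -247.5 bp for distance, -4.03 for arms and 11.8 for neighbours, replicate 4 at -11.0 for arms, 22.2 for the upstream side and 3.81 for CTGCGTC, and replicate 2 at -7.62 for 3′ ends.

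With replicate block, the paired mean differences within replicates were -8.14 for A+T content, -4.05 for the convergent share, 6.66 for the divergent share, -2.51 for arms, 10.5 for CTGCGTC, 24.4 for GAGAGA, 12.0 for neighbours and 8.29 for the upstream side, each with an exact sign-flip p of 0.25.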
